A study of Homo sapiens with 30 samples.

Results

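The genes described here are KDR, FLT1 and FLT4, which encode the receptors VEGFR2, VEGFR1 and VEGFR3 for vascular endothelial growth factor (VEGF), and NRP1, which encodes the co-receptor neuropilin-1. Open chromatin around them was followed with ATAC-seq, in which the transposase Tn5 inserts adapters into accessible DNA. Regions were chosen by position alone, as those with a peak summit in 1 of 4 windows of hg19: chr4:55930000-56050000 around KDR, chr13:28950000-29120000 around FLT1, chr5:180020000-180130000 around FLT4 and chr10:33450000-33680000 around NRP1. This gave 59 of 107672 autosomal regions of 501 bp, and 1756 of 3051490 autosomal summits in the peak lists of 30 libraries.

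The libraries came from 2 lines with the parental genotype, with 10 groups of 3 biological replicates. Eahy926 is a hybrid line with endothelial features, grown in DMEM with 10% serum and no VEGF, and in its VEGF group the VEGF of the LifeLine medium kit was added for 24 h. TeloHAEC are human aortic endothelial cells immortalised with telomerase, grown in LifeLine medium that contains VEGF, and in its VEGF group that VEGF was left out. Each line was also treated with IL1b or TNFa at 10 ng/ml for 24 h. Untreated controls were prepared on days 0 and 1 and treated cells only on day 1. The lines' media differ in more than VEGF, so line and medium cannot be told apart in the controls. Each is a single immortalised line, and the p-values below measure the spread between replicates of that line.

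VEGF ligands bind the receptor tyrosine kinases on the endothelial surface. VEGFR2 carries most of the mitogenic and permeability signal, VEGFR1 binds VEGF-A tightly with weak kinase output and also exists as a soluble trap, and VEGFR3 serves mainly VEGF-C in lymphatic endothelium. Neuropilin-1 binds VEGF-A and class 3 semaphorins and presents the ligand to VEGFR2.

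The KDR promoter had a strong peak in every library, and the FLT1 promoter in 0 of 15 Eahy926 and 6 of 15 TeloHAEC libraries. Promoter sequences are shown for these genes, the members with an entry in the sequence table. They are the 250 bases before the RefSeq start (GRCh38.p14, minus strand, KDR chr4:55125596-55125845 and FLT1 chr13:28495129-28495378), printed 5′ to 3′ with motif matches in capitals.
KDR: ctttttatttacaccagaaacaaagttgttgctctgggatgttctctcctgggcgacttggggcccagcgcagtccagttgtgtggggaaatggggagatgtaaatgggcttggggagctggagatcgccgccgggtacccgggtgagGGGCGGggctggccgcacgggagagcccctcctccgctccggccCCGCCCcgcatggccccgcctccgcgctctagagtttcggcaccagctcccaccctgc
FLT1: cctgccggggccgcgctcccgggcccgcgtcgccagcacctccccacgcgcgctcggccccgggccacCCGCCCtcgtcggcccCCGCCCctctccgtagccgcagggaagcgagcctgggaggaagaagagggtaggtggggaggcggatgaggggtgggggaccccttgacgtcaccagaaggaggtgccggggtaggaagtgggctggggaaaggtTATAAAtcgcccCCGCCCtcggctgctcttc
Both promoters were rich in G and C, with 65.2% in KDR and 73.2% in FLT1 against a median of 58% over 35116 promoters. KDR held 17 CpG and FLT1 25, and 61% and 78.4% of promoters held fewer. Searched on both strands, the GC box GGGCGG matched at 2 places in KDR and 3 in FLT1, and 42.6% of promoters have at least 1 match. The TATA box TATAAA matched once in FLT1 and not in KDR, with a match in 10.7% of promoters. CCGGAA, a form of the ETS site (14.5% of promoters), and the AP-1 motif TGANTCA (6.57%) had no match in these windows. Nor had the NF-kB motif of GGGA, any 2 bases and TTCC (1.4%) or the GATA motif AGATAA (9.17%). Other forms of the ETS site were not searched. No matches overlapped.

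Values are places in each library's peak list, ordered by the authors' p from the strongest (place 1) and shortened to the same 49774 peaks. A strong peak is one of the first 45000. For tests each place became a rank score, log2 of 49775 over the place, with 0 for no peak, so that doubling the place lowers the score by 1. Depth was 3577273 to 11404955 tags after removal of duplicates, with a median of 6375882 in Eahy926 and 8578349 in TeloHAEC. The deposited lists were of unequal length, with a median of 75478 autosomal peaks in Eahy926 and 106767 in TeloHAEC. Tags were 30 bp long in the day 0 files and 40 bp in those of day 1. As a check of the labels, the endothelial promoters of CDH5, TIE1 and ROBO4 had a strong peak in 13 to 15 libraries of each line, and those of 4 blood genes in none. Of 9 endothelial promoters, 3 had no strong peak in any Eahy926 library and 1 had none in any TeloHAEC library. Among the others than CDH5, TIE1 and ROBO4, ERG had a strong peak in 9 Eahy926 and 11 TeloHAEC libraries. TEK had one in 4 and 2, ESAM in 2 and 0, EMCN in 0 and 3, CLDN5 in 0 and 2 and VWF in 0 and 1. PECAM1 was also planned as a marker but was not counted. Of 7 epithelial promoters, the keratin gene KRT8 had a strong peak in 14 of 15 Eahy926 and 1 of 15 TeloHAEC libraries, KRT19 in 0 and 4, KRT18 in 1 and 1, and the other 4 in none. The whole deposited lists held a peak at KRT19 in 0 and 11 and at EPCAM in 0 and 7. Of 5 smooth muscle and fibroblast promoters, ACTA2 had one in 0 and 10, PDGFRB in 12 and 9, COL1A1 in 6 and 10, and the other 2 in none. The VWF promoter was without a peak in all 15 Eahy926 lists as deposited, and had one in all 15 of TeloHAEC. The part of depth and of these markers in the differences between lines was not tested.

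The KDR window held 14 regions, with 1 at the promoter, 5 inside the gene, 2 beyond its end and 6 upstream. FLT1 had 19 regions, of which 13 lay inside the gene and 2 at the promoter, and NRP1 had 23, of which 17 lay inside the gene. FLT4 had 3, and the windows measure 120, 170, 110 and 230 kb in the order KDR, FLT1, FLT4, NRP1. Regions are named below by gene and distance in kb from its start, positive into the gene. A strong peak in all 30 libraries was found in 4 of the 59 (background 11.7% of all regions), namely the KDR promoter, KDR +56.1 kb beyond the end of the gene, NRP1 +70.5 kb inside it and NRP1 -31.1 kb upstream of it. The strongest of all was NRP1 -31.1 kb (chr10:33654702-33655202), with a best place of 64 and a median place of 2749 in Eahy926 and 1863 in TeloHAEC. KDR +56.1 kb (chr4:55935394-55935894) followed by mean place over the 30 libraries, at median places 9028 and 4438, although in Eahy926 NRP1 +70.5 kb was ahead of it at 6731. FLT1 and FLT4 had no region of this kind.

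**Figure D1:**
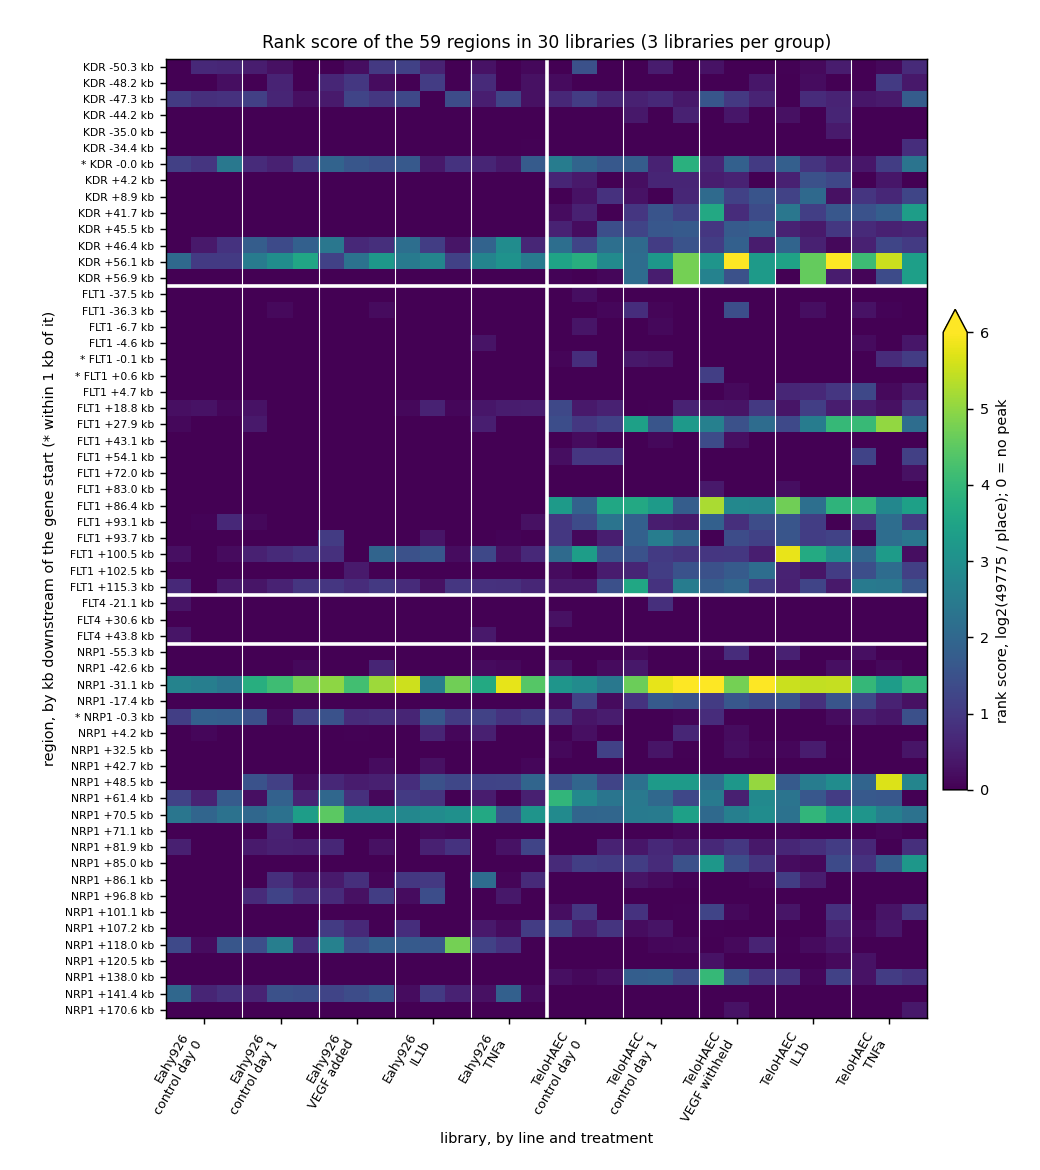
Rank score (colour, 0 for no peak, one colour from 6 up) of the 59 regions (rows, by gene and distance from its start in kb, * within 1 kb of the start) in the 30 libraries (columns, by line and group). The rows of KDR +56.1 kb, the KDR promoter, NRP1 +70.5 kb and NRP1 -31.1 kb are coloured in all 30 libraries, and many FLT1 rows only in TeloHAEC.

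A strong peak was seen only in TeloHAEC libraries in 27 of the 59 regions (background 24%) and only in Eahy926 libraries in 5 (22.9%). By gene, the counts only in TeloHAEC were 8 of 14 for KDR, 10 of 19 for FLT1, 1 of 3 for FLT4 and 8 of 23 for NRP1. Only in Eahy926 they were 0, 0, 1 and 4. Of the 59 regions, 8 were strong in only 1 library, so such counts can rest on a single library. The strictest form of this pattern, strong in all 15 libraries of a line and in none of the other, held for KDR +45.5 kb and FLT1 +86.4 kb on the TeloHAEC side (2 of 59, background 1.55%). On the Eahy926 side it held for NRP1 +141.4 kb (1 of 59, background 0.828%). In the whole deposited lists, a count added after the data were seen, 9 of the 59 had a peak in all 15 TeloHAEC lists and in no Eahy926 list (background 4.04%). These were KDR +56.9, +45.5, +41.7 and +8.9 kb, FLT1 +86.4 and +4.7 kb, and NRP1 +138.0, +101.1 and +32.5 kb. The reverse held for 0 of the 59 (background 0.791%).

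**Figure D2:**
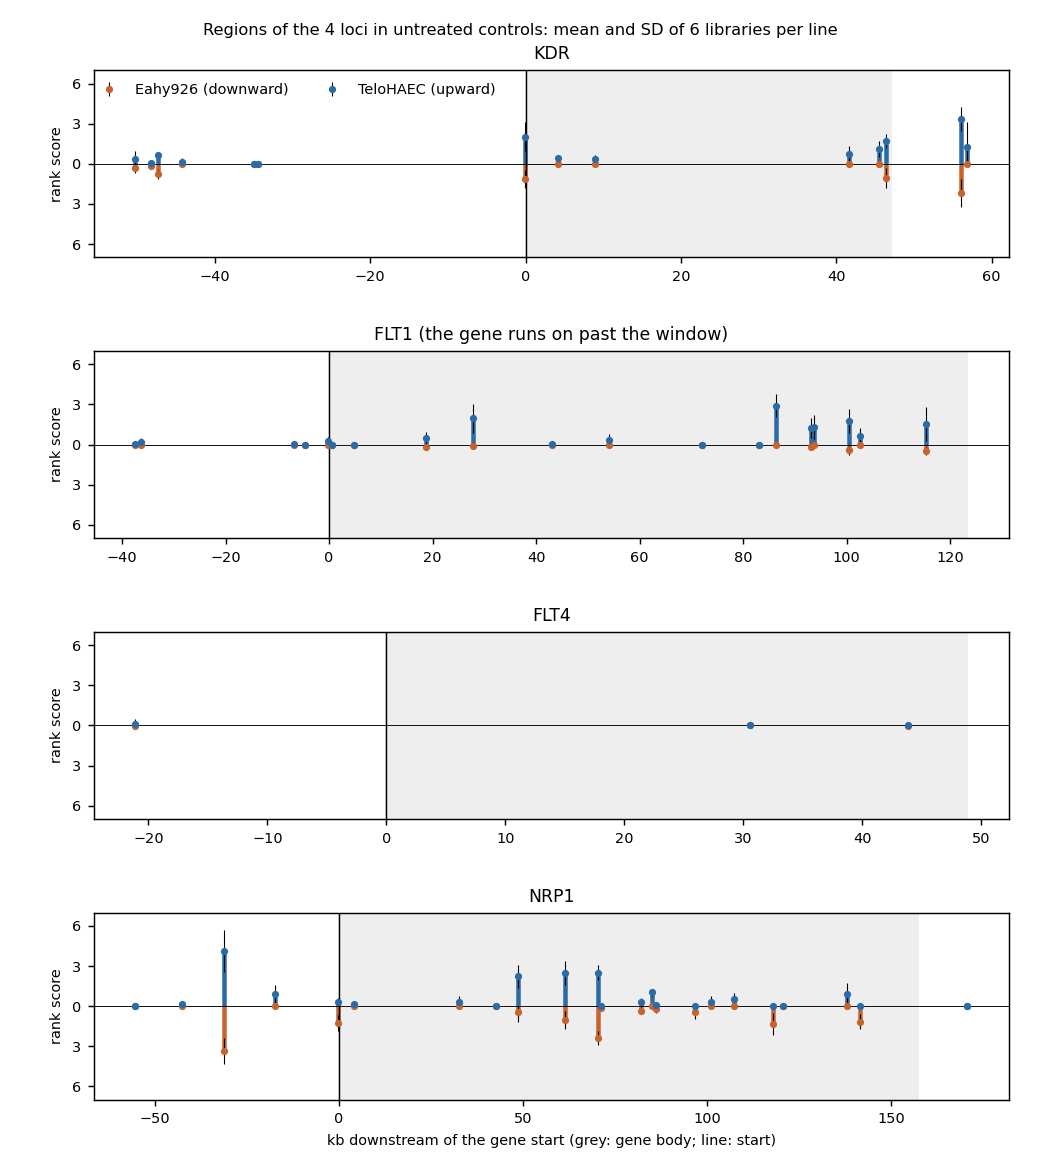
Mean rank score in the controls (vertical axis, TeloHAEC upward and Eahy926 downward, 6 libraries each, black bars SD cut at 0) against distance from the gene start in kb, with the gene body in grey. FLT1 stems inside the gene point mostly upward, while KDR +56.1 kb and NRP1 -31.1 kb are high on both sides.

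The first comparison asked how the untreated lines differ, with 6 control libraries of each and preparation day as a term. Of the 59 regions, 37 had a strong peak in at least 3 controls and were tested, and 20 passed limma with Benjamini-Hochberg adjustment over 64280 regions at 0.05, 16 higher and 4 lower in TeloHAEC. The background is wide, since 37.7% of all tested regions passed, 19.6% higher and 18.1% lower. The members' share was 54.1% and their median change 0.64, beside -0.08 over all regions. FLT1 had 7 of 10 tested regions higher and 0 lower, KDR 3 of 11 higher and 0 lower, and NRP1 6 of 16 higher and 4 lower. None of the FLT4 regions reached 3 controls. A region enters the test through the line where it is strong, so these counts describe the regions that entered and not all 59. The values of the groups did not overlap in 10 of the 37 (background 15.3%), and 5 were strong in all 6 controls of 1 line and none of the other (background 7.97%). Where 1 line has no peak at all, its 6 scores are 0 and add no spread to the test.

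**Figure D3:**
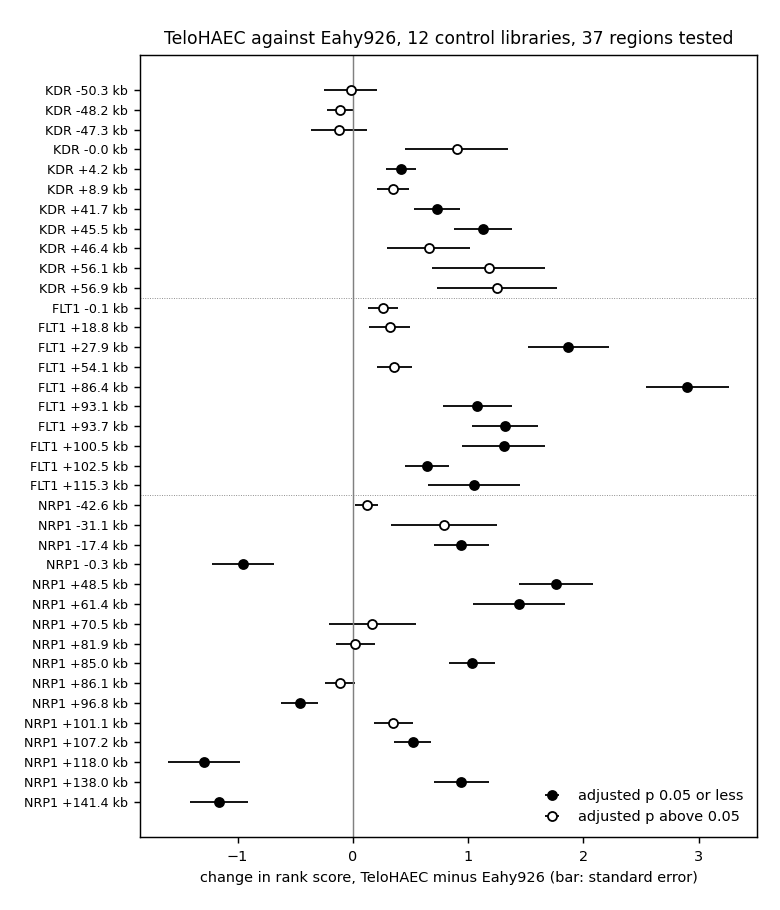
Change in rank score, TeloHAEC minus Eahy926, for the 37 tested regions with its standard error (6 controls each), filled where limma called it. All 7 called FLT1 points and all 3 called KDR points lie above 0, and the 4 called points below 0 belong to NRP1.

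KDR, the main signalling receptor, had an open promoter in both lines. Its promoter region (chr4:55991541-55992041) was at places 22623, 26064 and 9400 in the Eahy926 controls of day 0 and 30036, 33878 and 23461 in those of day 1. In the TeloHAEC controls it was at 8731, 13033 and 15849 on day 0 and at 14644, 33406 and 3514 on day 1. The lines overlap, and their difference of 0.90 ± 0.45 (SE, 95% interval -0.04 to 1.84, limma adjusted p = 0.113) did not pass. It passed in 1 of 12 fits with 1 control left out, that without TeloHAEC replicate 2 of day 1 (1.19 ± 0.44, adjusted p = 0.0426).

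The 3 KDR regions that passed lay inside the gene, and no test compared them with the promoter. KDR +45.5 kb (chr4:55945977-55946477), near the end of the gene, had no peak in the 6 Eahy926 controls and places from 15382 through a median of 19723.5 to 43037 in the 6 TeloHAEC controls. Its difference was 1.13 ± 0.25 (SE, limma adjusted p = 0.00178). KDR +41.7 kb (chr4:55949859-55950359) had no peak in Eahy926 controls and one in 5 of 6 TeloHAEC controls, at 17018 to 43034, with a difference of 0.73 ± 0.20 (adjusted p = 0.00816). KDR +4.2 kb (chr4:55987355-55987855) was likewise at places 32187 to 42828 in 5 of 6 TeloHAEC controls and without a peak in Eahy926, with a difference of 0.42 ± 0.13 (adjusted p = 0.021). By contrast, the neighbour KDR +46.4 kb was strong in 14 of 15 Eahy926 libraries and its difference of 0.66 ± 0.36 did not pass, so regions less than 1 kb apart had different patterns. KDR +56.1 kb was at 4247 to 24653 in Eahy926 and 1858 to 11496 in TeloHAEC controls (1.18 ± 0.49, adjusted p = 0.0628), a difference that passed without Eahy926 replicate 3 of day 1 (1.39 ± 0.50, adjusted p = 0.0392) or without TeloHAEC replicate 1 of day 1 (1.54 ± 0.45, adjusted p = 0.0147). Its neighbour KDR +56.9 kb had no peak in Eahy926 controls and one in 5 of 6 of TeloHAEC (1.25 ± 0.52, adjusted p = 0.0605), and in some libraries these 2 regions lie under the same wide peak and share its place. The upstream group from -34.4 to -50.3 kb gave no call in the controls, and KDR -47.3 kb, at median places 28035 and 31785.5, differed by -0.12 ± 0.24 (95% interval -0.62 to 0.38).

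FLT1, the high-affinity receptor that limits VEGF signalling, showed the largest difference between lines among these genes. FLT1 +86.4 kb (chr13:28982600-28983100) had no peak in any Eahy926 library, treated ones included. In the 6 TeloHAEC controls it was at places 4036 to 14530 with a median of 5161.5. The difference was 2.90 ± 0.36 (SE, 95% interval 2.14 to 3.65, limma adjusted p = 1.51e-05). FLT1 +27.9 kb (chr13:29041122-29041622) was at 4721 to 25390 in all 6 TeloHAEC controls against 37661 and 45760 in 2 of 6 Eahy926 controls, without overlap and with a difference of 1.87 ± 0.35 (adjusted p = 0.000602). FLT1 +93.7 and +93.1 kb, which share a wide peak in some libraries, were higher in TeloHAEC by 1.32 ± 0.29 and 1.08 ± 0.30 (adjusted p = 0.00207 and 0.00954). FLT1 +102.5 kb, with no peak in Eahy926 controls, was higher by 0.64 ± 0.19 (adjusted p = 0.0144).

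The other FLT1 regions that passed had a strong peak in 5 of 6 Eahy926 and all 6 TeloHAEC controls. Of those above, FLT1 +93.1 kb had a peak in 4 of 6 Eahy926 controls, 1 of them strong. The whole deposited Eahy926 lists held a peak in 12 of 15 libraries at FLT1 +93.1 kb and 12 at FLT1 +27.9 kb. They held one in 9 at FLT1 +102.5 kb, 7 at FLT1 +93.7 kb and 0 at FLT1 +86.4 kb. FLT1 +100.5 kb (chr13:28968491-28968991) was at 26771 to 44304 in 5 of 6 Eahy926 controls and at 4936 to 26450 in the 6 TeloHAEC controls, higher by 1.31 ± 0.36 (adjusted p = 0.00969). FLT1 +115.3 kb (chr13:28953708-28954208) was at 26135 to 39453 in 5 of 6 and at 4164 to 37569 in 6 of 6, higher by 1.05 ± 0.40 (adjusted p = 0.0456), and here the lines overlap. This call did not hold in 7 of 12 fits with 1 control left out, those without replicate 2 of Eahy926 or replicate 3 of TeloHAEC on day 0, any Eahy926 replicate of day 1, or replicate 1 or 3 of TeloHAEC on day 1 (0.70 to 1.05, adjusted p = 0.0679 to 0.105), nor in the IL1b and TNFa libraries (0.71, adjusted p = 0.108). Within 1 kb of the FLT1 start, 0 of 15 Eahy926 and 6 of 15 TeloHAEC libraries had a strong peak. The deposited lists held some peak there in 12 and 15. The promoter region FLT1 -0.1 kb (chr13:29069133-29069633) differed by 0.26 ± 0.13 (95% interval -0.01 to 0.53, adjusted p = 0.109). Over chromosome 13 as a whole, 36.9% of tested regions were higher and 6.77% lower in TeloHAEC, with a median change of 0.41, whereas for chromosomes 4, 5 and 10 the higher share was 21.5%, 18.3% and 21.1%. With each library's scores centred on their chromosome, 3 of the 7 FLT1 calls remained, FLT1 +93.7, +86.4 and +27.9 kb at 0.77 ± 0.29, 2.35 ± 0.36 and 1.32 ± 0.35. The 4 others were then at 0.76 ± 0.38 (FLT1 +100.5 kb), 0.53 ± 0.31 (FLT1 +93.1 kb), 0.51 ± 0.40 (FLT1 +115.3 kb) and 0.09 ± 0.21 (FLT1 +102.5 kb). Outside FLT1, centring ended the calls of KDR +4.2 kb (0.31 ± 0.15) and NRP1 +107.2 kb (0.39 ± 0.18).

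FLT4, the receptor of lymphatic endothelium, had few strong peaks in either line. Its 3 regions had 5 peaks in all among the shortened lists, at places 39551 and 37853 in Eahy926 for FLT4 +43.8 kb, at 41432 in TeloHAEC for FLT4 +30.6 kb, and at 39825 in Eahy926 and 28219 in TeloHAEC for FLT4 -21.1 kb. Within 1 kb of the start no library had a strong peak, and a deposited peak was present in 0 of 15 Eahy926 and 2 of 15 TeloHAEC libraries. In the whole deposited lists, a peak was present at FLT4 +30.6 kb in 0 of 15 Eahy926 and 12 of 15 TeloHAEC libraries, at FLT4 -21.1 kb in 6 and 9, and at FLT4 +43.8 kb in 5 and 1. These lists are longer in TeloHAEC, and none of the 3 regions was strong often enough to be tested between lines.

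NRP1, the co-receptor, was open in both lines, with a strong peak in both for 11 of its 23 regions, only in TeloHAEC for 8 (background 24%) and only in Eahy926 for 4 (22.9%). The whole deposited TeloHAEC lists held a peak at each of these 4. It was present in 6 of 15 libraries at NRP1 +141.4 kb, 1 at +96.8 kb, 13 at +71.1 kb and 4 at +42.7 kb. The promoter region NRP1 -0.3 kb (chr10:33623891-33624391) was at places 14044 to 44334 with a median of 20323 in the 6 Eahy926 controls. In the TeloHAEC controls it was at 26456, 39355 and 36271 on day 0 and at 47068 in 1 of 3 libraries on day 1. It was lower in TeloHAEC by -0.95 ± 0.27 (SE, limma adjusted p = 0.0115), and all 15 deposited lists of each line held a peak there. The call was lost when an overlap of 80% was required (limma adjusted p = 0.175) and with day 1 alone (-0.90 ± 0.32, adjusted p = 0.0574). Within this region the median summit was at 33624176 in 14 Eahy926 libraries (SD 96.4 bp, range 33623966 to 33624265). In 10 TeloHAEC libraries it was at 33623979 (SD 111.6 bp, range 33623917 to 33624212). The ranges overlap, and the difference in summit was not tested. NRP1 +141.4 kb (chr10:33482217-33482717), toward the end of the gene, was at 12469 to 33090 in Eahy926 controls and without a peak in every TeloHAEC library of the shortened lists, a difference of -1.16 ± 0.25 (adjusted p = 0.00195). NRP1 +118.0 kb (chr10:33505592-33506092) was at 8437 to 43253 in Eahy926 controls and at 45932 and 46380 in 2 of 6 TeloHAEC controls, without overlap, and differed by -1.29 ± 0.31 (adjusted p = 0.00344). NRP1 +96.8 kb was the fourth lower region, at -0.46 ± 0.16 (adjusted p = 0.0329), with a peak in 3 of 6 Eahy926 controls and none in TeloHAEC, and its call was lost when replicate 1, 2 or 3 of the TeloHAEC controls of day 1 was left out (-0.41 each, adjusted p = 0.074 to 0.0745) and in the IL1b and TNFa libraries (-0.34 ± 0.18, adjusted p = 0.143).

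In the other direction, NRP1 +48.5 kb (chr10:33575054-33575554) was at 5127 to 21187 in TeloHAEC controls against 17460 to 43651 in 3 of 6 Eahy926 controls, higher by 1.76 ± 0.32 (adjusted p = 0.000467). NRP1 +85.0 kb (chr10:33538566-33539066) was at 17692 to 30313 in all 6 TeloHAEC and without a peak in all 6 Eahy926 controls, higher by 1.03 ± 0.20 (adjusted p = 0.000741). NRP1 +61.4 kb was strong in all controls of both lines and higher in TeloHAEC by 1.44 ± 0.40 (adjusted p = 0.00952). It kept its sign but did not pass with day 1 alone (1.01 ± 0.55, limma adjusted p = 0.182). Nor did it pass with VEGF matched between lines (0.98 ± 0.44, adjusted p = 0.081) or in the IL1b and TNFa libraries (0.90 ± 0.36, adjusted p = 0.0535). NRP1 +138.0 kb (0.94 ± 0.24), NRP1 +107.2 kb (0.52 ± 0.16) and the upstream NRP1 -17.4 kb (0.94 ± 0.24) also passed as higher, each with no peak in the Eahy926 controls. NRP1 +141.4 and +138.0 kb thus lie a few kb apart and changed in opposite directions between the lines. The strongest regions of the locus were shared: NRP1 -31.1 kb differed by 0.79 ± 0.46 (95% interval -0.18 to 1.76) and NRP1 +70.5 kb by 0.17 ± 0.38, and neither passed.

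Counted per locus, TeloHAEC had more strong peaks around 3 of the 4 genes. Windows elsewhere were not counted, so these counts have no background beside them. On chromosome 13, that of FLT1, 36.9% of tested regions were higher and 6.77% lower in TeloHAEC. The FLT1 window held 2.67 ± 1.03 strong peaks in Eahy926 and 8.83 ± 1.17 in TeloHAEC controls (SD, n = 6 each, exact permutation test within day, two-sided, p = 0.005, adjusted over 4 loci 0.01). The KDR window held 4.83 ± 1.17 and 8.5 ± 0.84 (exact p = 0.005, adjusted 0.01). The NRP1 window held 8.33 ± 2.07 and 11.17 ± 1.47 (exact p = 0.03, adjusted 0.04). FLT4 had 0.33 ± 0.82 and 0.33 ± 0.52 (exact p = 1). Over all 15 libraries of a line, the ranges were 1 to 5 against 8 to 13 for FLT1 and 3 to 6 against 7 to 11 for KDR, without overlap, and 6 to 13 against 9 to 14 for NRP1. The KDR and NRP1 counts depended on the settings: among the 30000 strongest peaks the excess was 1.5 (exact adjusted p = 0.06) for KDR and 1.33 (0.18) for NRP1, and with lists ordered by fold enrichment 1.67 (0.28) and 1.00 (0.407). For NRP1 the adjusted p was also between 0.0533 and 0.0667 when 1 of 5 controls was left out, namely replicates 2 and 3 of Eahy926 on day 0, replicate 1 of Eahy926 on day 1, or replicates 1 and 2 of TeloHAEC on day 1.

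**Figure D4:**
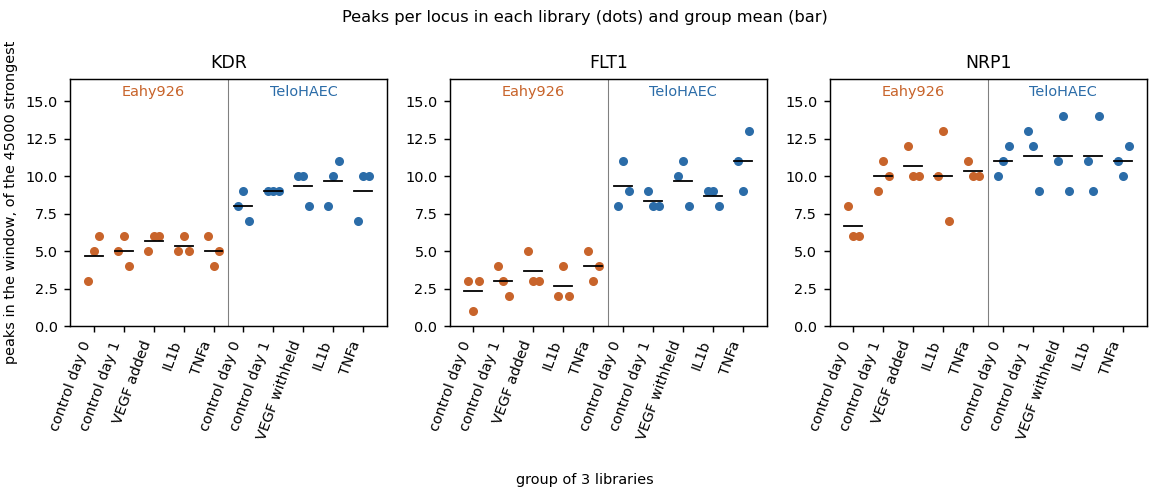
Number of strong peaks in the KDR, FLT1 and NRP1 windows (vertical axis) in each library (points) by group, with bars for group means (n = 3). Every TeloHAEC library lies above every Eahy926 library for KDR (7 to 11 against 3 to 6) and FLT1 (8 to 13 against 1 to 5), and the ranges overlap for NRP1.

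Since VEGF was in the medium of only 1 line's controls, the lines were also compared on day 1 with VEGF matched, TeloHAEC controls against Eahy926 with VEGF and TeloHAEC without VEGF against Eahy926 controls. This fit shares the day 1 controls with the first. Of the 20 regions called there, 17 passed again in the same direction and 19 kept their sign, where 77.3% of all regions called in the controls passed again. The exception in sign was NRP1 +107.2 kb at -0.19. With VEGF matched, FLT1 +86.4 kb was higher by 3.24 ± 0.44 and KDR +45.5 kb by 1.51 ± 0.27, and KDR +8.9 kb (0.95 ± 0.25, adjusted p = 0.00543) and KDR +56.9 kb (2.46 ± 0.49, adjusted p = 0.000568) passed as well. FLT1 +100.5 kb did not pass, at 0.16 ± 0.32. With the day 1 controls alone, VEGF not matched, it was at 0.44 ± 0.35 and KDR +56.9 kb at 2.45 ± 0.86. Neither passed there. With the day 0 controls alone, FLT1 +100.5 kb was at 2.19 ± 0.45 and NRP1 +107.2 kb at 0.87 ± 0.21. The matched fit thus differs from the first in day as well as in VEGF. In the IL1b and TNFa libraries, none of which entered the first fit, 15 of the 20 passed in the same direction and 19 kept their sign, where 68% of all regions called in the controls passed again. Both shares of the members are near those of all called regions. There FLT1 +86.4 kb was higher by 3.49 ± 0.42 and NRP1 +118.0 kb lower by -1.60 ± 0.46, while the NRP1 promoter, at -0.66 ± 0.31, did not pass (adjusted p = 0.091).

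VEGF itself, withheld from TeloHAEC or added to Eahy926, gave no called change in these loci. Of 39 tested regions in TeloHAEC 0 passed limma (background 0%, 0 of 58694), with a smallest adjusted p of 0.974 and 1 region with an unadjusted p under 0.05, against 5.03% of all regions. In Eahy926 0 of 20 passed (background 0%, 0 of 56650), with a smallest adjusted p of 0.967 and 0 with an unadjusted p under 0.05, against 5.08%. The region with the low unadjusted p was KDR +8.9 kb (chr4:55982629-55983129), inside the gene. It was at places 11874, 22225 and 16928 without VEGF, and in the day 1 controls at 40764, at no place and at 32000. The library at 11874 was 1 of the 3 shallowest (3809718 tags). The groups do not overlap, as for 9.69% of all regions, and the change was 1.29 ± 0.53 (SE, 95% interval 0.20 to 2.38). The same region was also at 21826, 11950 and 41626 with IL1b and at 26102, 31439 and 20886 with TNFa, both measured against the same 3 controls, and had no peak in Eahy926.

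The KDR promoter was at 32509, 13785 and 24480 without VEGF in TeloHAEC, within the wide range of its controls, a change of -0.89 ± 0.71 (95% interval -2.35 to 0.56). In Eahy926 with VEGF added it was at 13110, 16334 and 18103, all ahead of the 3 day 1 controls at 30036, 33878 and 23461, but the change of 0.87 ± 0.51 (95% interval -0.17 to 1.92) did not pass, and 2 of the 3 day 0 controls (22623 and 26064) lay behind and 1 (9400) ahead of all 3. Groups did not overlap in 2 of 39 regions in TeloHAEC and 1 of 20 in Eahy926, beside 9.69% and 8.59% of all regions. The promoter of NRP1 changed by 0.23 ± 0.28 in TeloHAEC and 0.10 ± 0.50 in Eahy926, and FLT1 +86.4 kb by 0.70 ± 0.93 in TeloHAEC. The largest change was 1.86, at NRP1 -31.1 kb without VEGF in TeloHAEC. It was at places 229, 1863 and 64, against 1969, 904 and 727 in the day 1 controls, with overlap. At the KDR promoter, the intervals leave room for changes of more than 1 in rank score in both lines. The lines did not differ in a called way in their response to VEGF, coded as present minus absent. None of 44 tested regions passed (background 0%), the smallest adjusted p was 0.799, and for the KDR promoter the difference between responses was 0.02 ± 0.88 (95% interval -1.79 to 1.82). The largest difference between responses was -2.41, at NRP1 -31.1 kb.

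The inflammatory cytokines IL1b and TNFa also gave no called change in either line. With IL1b 0 of 39 passed in TeloHAEC (background 0.334%) and 0 of 20 in Eahy926 (background 0.00353%). With TNFa 0 of 39 passed in TeloHAEC (background 0.00341%) and 0 of 20 in Eahy926 (background 0.267%). Unadjusted p-values under 0.05 numbered 3, 0, 3 and 0 in that order, against 9.92%, 4.2%, 7.76% and 8.77% of all regions. Groups did not overlap in 5 of 39, 0 of 20, 8 of 39 and 3 of 20 regions, beside 15.2%, 8.74%, 11.7% and 12.4% of all regions. The largest change with TNFa in TeloHAEC was -1.76, at NRP1 -31.1 kb. It was at places 3135, 5000 and 3227 with TNFa and at 1969, 904 and 727 in the day 1 controls. The treated groups of a line share their 3 controls.

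The lowest p among the cytokine responses belonged to FLT1 +100.5 kb with IL1b in TeloHAEC. It was at places 887, 3906 and 6398 with IL1b, at 17459, 24520 and 26450 in the day 1 controls and at 12717, 5044 and 42688 with TNFa. The IL1b libraries lie ahead of all 3 day 1 controls (groups did not overlap for 15.2% of all regions) and overlap the day 0 controls, at 11820, 4936 and 16857. The change with IL1b was 3.0 ± 0.77 (SE, 95% interval 1.41 to 4.58) and did not pass over all regions (limma adjusted p = 0.0881, and 0.0511 to 0.536 over 16 alternatives). IL1b against TNFa gave 2.32 ± 0.77 for it, and its responses to IL1b in the 2 lines differed by 2.61 ± 0.95 (adjusted p = 0.38). In Eahy926 it was at 17783, 16179 and 43537 with IL1b and at 34266, 30532 and 26771 in the day 1 controls. FLT1 +115.3 kb went the other way in TeloHAEC, from 4164, 26884 and 8685 in the day 1 controls to 33949, 21400 and 37715 with IL1b, a change of -1.61 ± 0.66 that did not pass and with overlapping groups.

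FLT1 +4.7 kb (chr13:29064293-29064793), inside the gene near its start, was a case of presence and absence. It was at 31929, 31166 and 25797 with IL1b and at 20299, 44575 and 36850 with TNFa, against no peak in the 3 day 1 controls of TeloHAEC. One day 0 control had it at 49211 and 1 library without VEGF at 44805. The changes of 0.75 ± 0.29 and 0.63 ± 0.29 did not pass (limma adjusted p = 0.336 and 0.622), and 3.24% and 1.93% of all regions were strong in all of 1 group and none of the other in these comparisons. In the whole deposited lists it had a peak in all 15 TeloHAEC libraries, so its absence here is one from the first 49774 places.

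The NRP1 promoter was at 35235, 38875 and 18014 with TNFa in TeloHAEC, against 47068 in 1 of 3 day 1 controls, a change of 0.75 ± 0.28 (limma adjusted p = 0.541). The TNFa values lie within the range of the day 0 controls, 26456 to 39355, apart from 18014. That value came from the shallowest TeloHAEC library (3598755 tags). In Eahy926, where the promoter is strong, it changed by 0.12 ± 0.50 with TNFa. NRP1 +107.2 kb was strong in 3 of 3 Eahy926 libraries with TNFa and in 0 of 3 controls (0.55 ± 0.31, background 2.34%). KDR -48.2 kb had no peak in the 3 day 1 controls of TeloHAEC and one in each TNFa library, without overlap as for 11.7% of all regions. Its change of 0.48 ± 0.22 did not pass (adjusted p = 0.62). The KDR promoter changed by -0.97 ± 0.71 with IL1b and -0.80 ± 0.71 with TNFa in TeloHAEC, and by 0.19 ± 0.51 and 0.12 ± 0.51 in Eahy926.

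**Figure D5:**
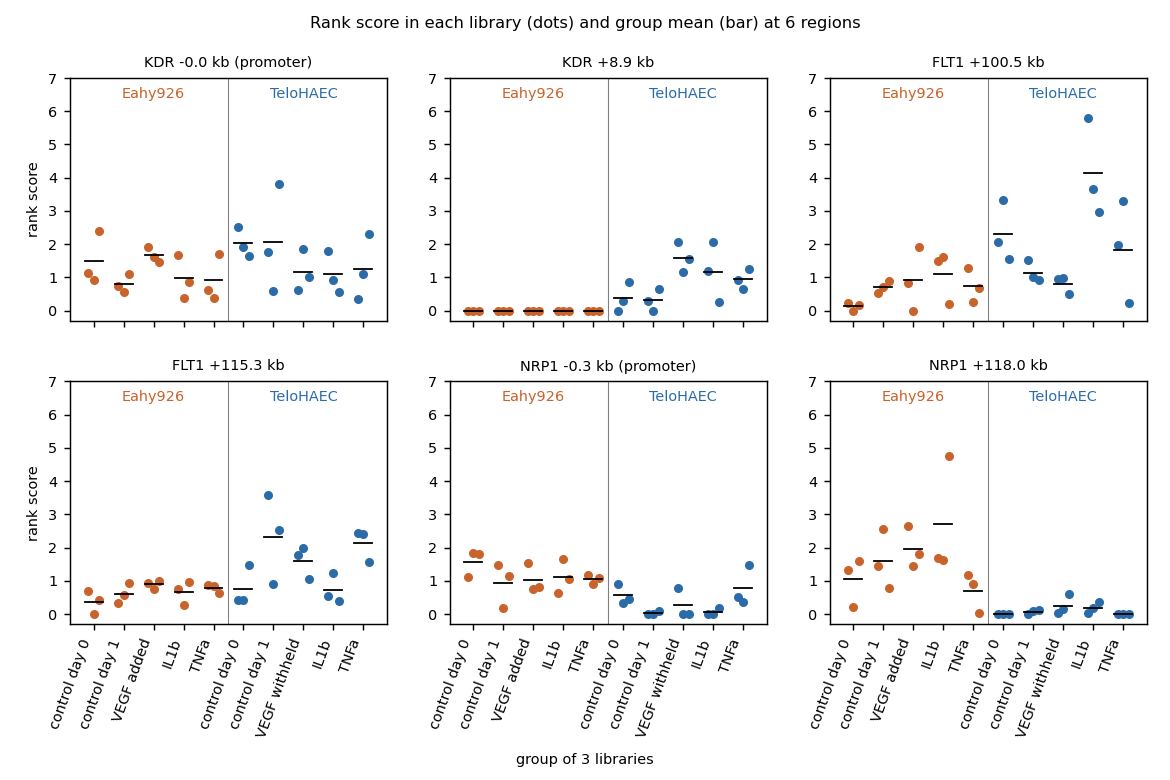
Rank score (vertical axis) by library (points) and group for KDR -0.0, KDR +8.9, FLT1 +100.5, FLT1 +115.3, NRP1 -0.3 and NRP1 +118.0 kb. FLT1 +100.5 kb is highest with IL1b in TeloHAEC (places 887 to 6398), KDR +8.9 kb has no point above 0 in Eahy926, and NRP1 +118.0 kb is low throughout TeloHAEC.

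Set against each other, IL1b and TNFa gave 0 called regions of 39 in TeloHAEC (background 0.104%) and 0 of 20 in Eahy926 (background 0.316%). In TeloHAEC 6 had an unadjusted p under 0.05 (7.49% of all regions), among them KDR +4.2 kb at 0.99 ± 0.35 and FLT1 +115.3 kb at -1.42 ± 0.66. In Eahy926 the 1 such region (8.59% of all) was NRP1 +118.0 kb, at 15268, 15996 and 1851 with IL1b and 21990, 26952 and 49087 with TNFa, without overlap, as for 12.6% of all regions (2.0 ± 0.68, 95% interval 0.61 to 3.40, adjusted p = 0.326). The responses of the lines to IL1b and to TNFa differed in a called way in 0 of 44 regions each (background 0.258% and 0.0518%), with smallest adjusted p-values of 0.359 and 0.623.

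The spread between preparation days touched the same loci without any treatment. In TeloHAEC 3 of 31 regions passed between day 1 and day 0 controls (background 11.6%), all higher on day 1 (background 4.98%), NRP1 -31.1 kb by 2.70 ± 0.81, FLT1 +93.7 kb by 1.56 ± 0.46 and NRP1 +138.0 kb by 1.47 ± 0.37 (limma adjusted p = 0.0476, 0.0446 and 0.0276). In Eahy926 4 of 17 passed (background 17.6%), all higher on day 1 (background 8.12%), NRP1 -31.1 kb by 1.68 ± 0.52, KDR +56.1 kb by 1.63 ± 0.49, KDR +46.4 kb by 1.22 ± 0.37 and NRP1 +96.8 kb by 0.91 ± 0.23. Day and tag length cannot be told apart. NRP1 -31.1 kb moved from 5632, 6701 and 9457 on day 0 to 1969, 904 and 727 on day 1 in TeloHAEC, and from 7711, 8435 and 9805 to 3650, 2836 and 1891 in Eahy926, without overlap in either line (background 34.6% and 39.3%).

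Other genes of the VEGF pathway gave a mixed picture between lines. Of 213 tested regions within 50 kb of the starts of 26 genes, 35 were higher and 31 lower in TeloHAEC, or 31% called, with a median change of -0.14, beside 37.7% called and a median of -0.08 over all regions. By role, 5 regions near ligand genes were higher and 6 lower of 38, and near co-receptor and semaphorin genes 4 and 8 of 39. Near receptor partners and phosphatases it was 6 and 4 of 29, near signalling genes 9 and 8 of 54, and near targets and feedback genes 11 and 5 of 53. Near DLL4, the Notch ligand of tip cells, 5 of 8 were higher, up to 2.45 ± 0.40 (limma adjusted p = 0.000179). Near PTPRB, the phosphatase VE-PTP, 3 of 8 were higher and 1 lower, and the lowest p was of the lower one, at -2.72 ± 0.32 (adjusted p = 7.41e-06). Near NOS3, endothelial nitric oxide synthase, 2 of 11 were higher and 3 lower, and the lowest p was of a higher one, at 2.17 ± 0.43. Neither VEGF comparison called any of these regions (0 of 177 and 0 of 188). IL1b in TeloHAEC called 2 of 177 (0.334% over all regions), both higher, 1 near NRP2, the neuropilin of VEGF-C, and 1 near PTPRB (chr12:71055484-71055984, 2.56 ± 0.56, adjusted p = 0.0403). TNFa in Eahy926 called 2 of 188 (0.267% over all regions), both higher, 1 near NRP2 and 1 near NCK1, an adaptor of VEGFR2 (2.09 ± 0.47, adjusted p = 0.0449). The NRP2 region was the same in both comparisons (chr2:206577157-206577657, 2.05 in each). It was also the 1 of 188 called for IL1b against TNFa in Eahy926 (-2.21 ± 0.41, limma adjusted p = 0.0111, 0.316% over all regions).

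Among 34 promoter regions compared over the 30 libraries, the KDR promoter's rank score was most like those of VEGFA (Pearson r = 0.59), NRP2 (0.50) and EGR3 (0.40). The FLT1 promoter was most like ACTA2 (0.54), SHB (0.52) and VEGFA (0.51), and the NRP1 promoter most like SPRY4 (0.71), KRT8 (0.58) and PLCG1 (0.50). These points share the 2 lines, their depth and their days, so a difference between lines alone gives a high r. After removal of group means, the rank scores of members of different loci had a median r of -0.01 over 335 pairs, and those of the same locus -0.00 over 161 pairs.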

How the data were processed

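ATAC-seq peaks of 30 libraries were used as deposited. Reads were aligned to hg19 with Bowtie2, per the submitters' processing notes, and peaks were called per library with MACS2 2.1.1.20160309 without a control library at a p threshold of 0.001, per the file headers. The deposited tables give the authors' pileup, a coverage signal in tags, the authors' −log10 p and −log10 q, and fold enrichment over local background as the authors' ratio. They hold no counts per region and were used only to order peaks within a list.

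Summits of a peak interval were merged to the strongest, lists were ordered by p and shortened to 49774 autosomal peaks, and regions of 501 bp were built around the 45000 strongest. A peak matched a region when it covered at least 50% of the shorter. Rank scores were compared with limma 3.58.1 (R 4.3.3, moderated, trend, two-sided, Benjamini-Hochberg, 0.05) in regions strong in at least 3 libraries of the fit. Lines were compared in 12 controls, treatments in the 12 day 1 libraries of a line, and differences of responses in 24. Python 3.11.15, scipy 1.17.1, numpy 2.4.6, pandas 2.3.3 and matplotlib 3.10.9 were also used. Code was tested on simulated data. Errors of changes are standard errors. Precision is limited by 3 replicates and by depth.

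Named regions were the promoter regions, the 3 of best mean place per locus, every called member, and every member strong in all of 1 group and none of the other. The members, lists and rules were chosen with earlier results of these data known. Gene starts were written from general knowledge, since no hg19 annotation was used here, and 54 of 54 fell on the chromosome RefSeq gives, with 33 of 33 neighbours in order. Exons and introns were not assigned. Sequences come from RefSeq (GRCh38.p14), which gave KDR and FLT1. Alternatives varied overlap, order, scale, filter, threshold, centring, libraries and block.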

Additional observations from a re-analysis of the deposited data

How the results depend on the processing

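The 20 members called between lines were 18 to 21 when 1 control was left out and 13 with day 1 alone, where fewer libraries enter. The counts under the other settings stayed within 1.5 times, though not always for the same regions. With day 0 alone, 13 of the 20 could be tested and 11 passed in the same direction. KDR +56.1, KDR +46.4 and FLT1 +54.1 kb passed there but not in the first comparison. With 1 control left out, FLT1 +115.3 kb lost its call in 7 of 12 fits and NRP1 +96.8 kb in 3 of 9. Of the called members, NRP1 +141.4, +118.0, +48.5, +138.0 and -17.4 kb and FLT1 +86.4 and +27.9 kb were called under every setting that tested them. All 8 treatment comparisons called 0 members under every alternative, with 1 replicate left out included (0 to 0). Directions turned with lists ordered by fold enrichment for KDR +56.1 kb (-0.46), KDR +46.4 kb (-0.44), the KDR promoter (-0.34) and NRP1 +70.5 kb (-0.40). KDR +46.4 kb also turned with day 1 alone (-0.10), matched VEGF (-0.13) and the cytokine libraries (-0.60), as did NRP1 +107.2 kb with matched VEGF (-0.19) and the cytokine libraries (-0.23), NRP1 +70.5 kb with matched VEGF (-0.33) and FLT1 -0.1 kb after centring by chromosome (-0.29). The cause was not tested. The excess of strong peaks per locus was 3.25 to 4.0 for KDR, 5.75 to 6.5 for FLT1, -0.17 to 0.33 for FLT4 and 2.42 to 3.42 for NRP1 with 1 control left out. It was 1.5 (KDR) and 1.33 (NRP1) among the 30000 strongest, and 1.67 and 1.00 with lists ordered by fold enrichment.

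Samples with the same replicate number did not deviate together (median r -0.0058 in TeloHAEC and -0.0028 in Eahy926, 0 of 18 pairs above 0.1 in each). With a replicate block, 20 members were called between lines and 0 in each treatment. In the exact test with the block, which has 64 sign patterns, the excess was 3.67 for KDR (adjusted p = 0.0625), 6.17 for FLT1 (0.0625) and 2.83 for NRP1 (0.125), and the smallest unadjusted p it can give is 0.0312. None of the 3 shallowest libraries is a control, so leaving them out was run for treatments only. Without counts per region, a change within the first places and a change of depth cannot be told apart, and a region without a peak may be open below the threshold.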
